A study of Mus musculus with 5 samples.

Results

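The comparison was between EHe, an undifferentiated hybrid line made by fusing mouse E14 embryonic stem (ES) cells with the mouse hepatoma line Hepa1-6, and Hepa1-6 itself, each measured on 1 array, which are 2 of the 5 arrays of the series. The question was how much of the hepatoma's expression was still present in the hybrid before any differentiation, and which hepatoma genes stayed near the hepatoma level. Both arrays read 1 colour of a mouse whole-genome oligonucleotide design. Probes entered when the scanner software called them well above background in EHe or in Hepa1-6, and 25931 of 41174 probes did so. Among them, 1489 were called hepatoma probes, because they were well above background in Hepa1-6 and over 10-fold brighter there than on the array of the ES parent, which served only as this background. The EHe array played no part in choosing them.

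EHe carried the genomes of both parents. According to the study's methods, the ES parent had been marked with a red fluorescent protein and hygromycin resistance and the hepatoma parent with a green fluorescent protein and neomycin resistance, and hybrids were picked as individual colonies, so that EHe stands for the line that was hybridised and not for all fusions. The labels do not say which colony it was. EHe and the ES parent were grown with serum replacement and leukemia inhibitory factor, while Hepa1-6 grew in medium rich in glucose, supplemented with fetal calf serum. The Hepa1-6 array was also on a slide of its own, whereas the other 4 arrays shared a slide. Line, medium and slide therefore cannot be told apart. EHeD7 and EHeD14 are the same hybrid after 7 and 14 days of differentiation, by the labels in medium with fetal calf serum, and were used only to follow the hepatoma probes.

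No condition had a second array, so no error between replicates was available and no test was made. A difference is given in log2 with the scanner software's own error of the 2 signals, which was 0.20 for a bright spot and covers the reading of the spot only. The median SD of log2 signal between the spots of 245 repeated probes was 0.13 in EHe and 0.11 in Hepa1-6, so spot noise alone gave a difference an SD of 0.17. Levels are log2 signals relative to the 75th percentile of each array, so a level of 0 is the signal that 75% of spots did not exceed. A signal that was not well above background only bounds a fold change. The bound was taken at the lowest signal called well above background, 45.1 in EHe and 36.8 in Hepa1-6, or at the measured signal where that was higher. Some dim signals lay above these limits, so the bounds are approximate. Of 10 spike-in RNAs, 7 were well above background on both arrays, and EHe minus Hepa1-6 ran from -0.13 to 0.27 among these 7. EHe carried the ES program, with 22 of 25 tested pluripotency genes over 3-fold higher than in Hepa1-6. Hepa1-6 carried albumin and alpha-fetoprotein, while the probe of transthyretin (Ttr), another liver carrier protein, was not well above background on either array. The paper's RT-PCR, in contrast, reported Ttr as abundant in Hepa1-6.

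When a differentiated cell is fused with an ES cell, both nuclei come to share one cytoplasm, and tissue-specific genes of the differentiated partner are usually shut off while its pluripotency genes are switched on. Hepatocyte genes depend on a network of transcription factors, among them HNF4A, the FOXA proteins and C/EBP alpha, that bind near the promoters and enhancers of secreted protein and metabolic genes and also maintain each other. A hepatoma line keeps part of this network and adds growth factor, cytoskeletal and stress genes of its own.

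Most hepatoma probes were far below the hepatoma level in EHe. Over all 25931 probes tested, 4190 (16.2%) were over 3-fold lower in EHe than in Hepa1-6, 5606 (21.6%) were over 3-fold higher and 15139 (58.4%) were within 3-fold and well above background on both arrays. Of the 1489 hepatoma probes, 715 or 48.0% were silenced (95% Wilson interval from 45.5% to 50.6%, counting error only). Such intervals take probes as independent, although the 1245 named hepatoma probes covered 988 genes, and they hold no error between cultures. Silenced here means not well above background in EHe and over 3-fold lower even when EHe was raised to its detection limit. The same rule took 4.13% of all probes tested, and 9.78% of them were well above background in Hepa1-6 and not in EHe. A further 594 (39.9%) were lowered, that is, over 3-fold below Hepa1-6 but still well above background in EHe. Another 142 (9.54%) were unresolved, because they were lost from EHe but too dim in Hepa1-6 for the bound to reach 3-fold. The remaining 38 (2.55%, interval from 1.86% to 3.48%) were within 3-fold of Hepa1-6, and none was over 3-fold higher. A hepatoma probe is bright in Hepa1-6 by choice, so part of the distance from the background share lies in the choice itself. The scale between the arrays mattered for counts over all probes. Of all probes past 3-fold, 57.2% were higher in EHe on the scale used here, 48.7% after quantile normalization and 38.2% after centring on the median, and the median difference of all probes was 0.26, 0.05 and -0.41. When dim values were set to the detection limit, 13.1% of all probes were over 3-fold lower and 18.2% higher. Counts for gene groups below call a gene lower, higher or within 3-fold by its measured values, and the number that stood at the detection limit is given where it differed.

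**Figure D1:**
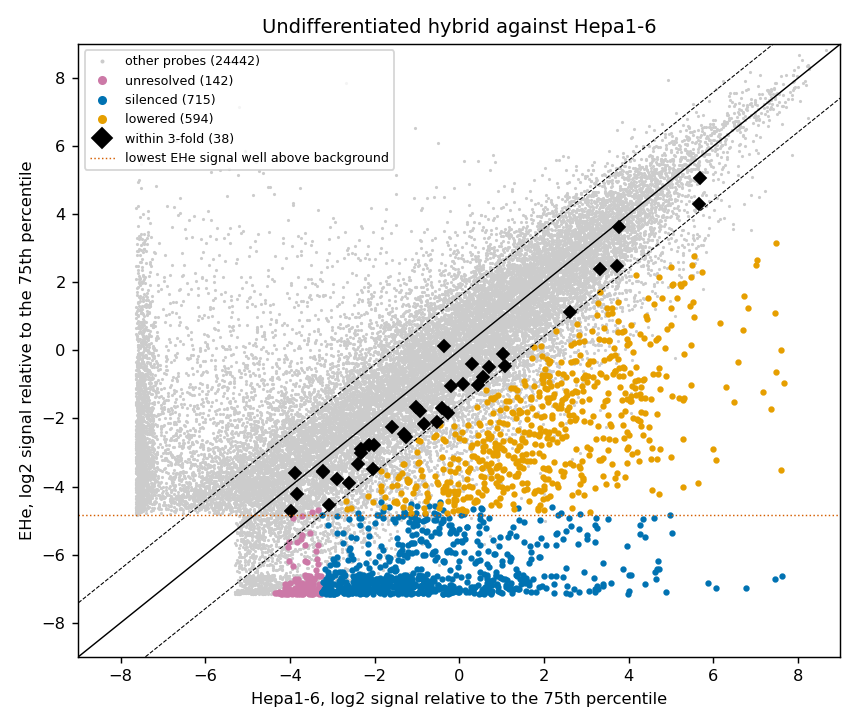
Log2 signal in EHe (y axis) against Hepa1-6 (x axis), each relative to the array's 75th percentile, for 25931 probes. The solid line marks equal levels, the dashed lines 3-fold, and the dotted line the lowest EHe signal called well above background. The 38 probes within 3-fold (diamonds) lie close to the diagonal. The 715 silenced probes lie in a band at the bottom, at the Hepa1-6 levels bright enough for the bound to reach 3-fold.

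The median EHe minus Hepa1-6 difference over the hepatoma probes was -4.52, a level of 4.34% of Hepa1-6, against 0.26 over all probes tested. With EHe raised to the detection limit where it was dim, the median was -3.70, or 7.71%. Few probes were near the hepatoma signal: 583 were well above background in EHe at over 1% of the Hepa1-6 signal, 208 at over 10%, 77 at over 20% and 20 at over 50%. A probe below 10% can still be at its ES level, because the choice asked only for 10-fold over ES. The lower counts of this series therefore do not separate hepatoma signal from ES signal. Silenced probes were at least 13.7-fold lower at the median bound, and lowered probes were measured at a median of 5.72% of Hepa1-6. In the ES parent, 92.1% of lowered probes but 17.8% of silenced probes were well above background. Of all hepatoma probes, 691 were well above background in ES and 798 were not. The 2 classes are defined by detection in EHe, and how much of the contrast in ES lies in that split was not tested. The matching share over all probes tested was not computed. The RNA came from whole cultures, so fewer expressing cells and less RNA per cell cannot be told apart.

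**Figure D2:**
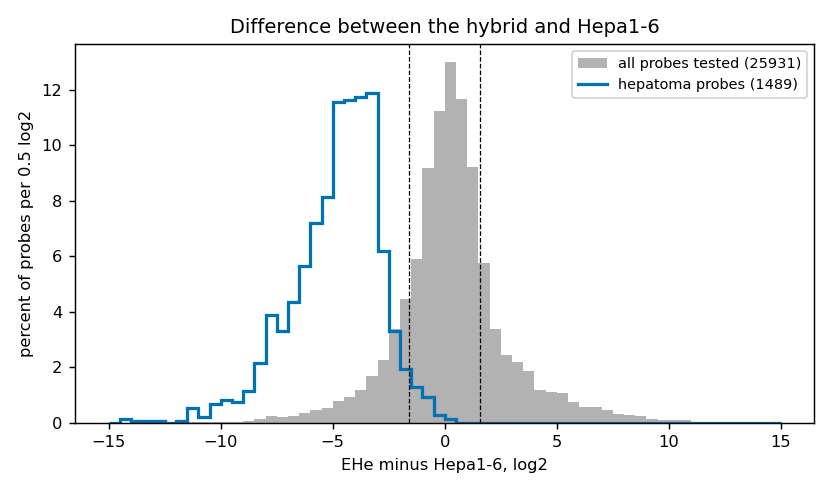
Distribution of the EHe minus Hepa1-6 difference (x axis, log2) as the percent of probes per 0.5 log2 (y axis), for all 25931 probes tested (grey) and the 1489 hepatoma probes (blue line). Dashed lines mark 3-fold. The hepatoma probes centre on -4.52 and all probes on 0.26.

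The secreted liver carriers had the lowest median difference of the 24 gene groups examined. Of 13 plasma carrier genes tested, 10 were over 3-fold lower in EHe, 9 of them also at the detection limit, 2 were higher, 1 at the detection limit, and the median difference was -6.52. Albumin (Alb), the main plasma protein, had a level of 6.06 in Hepa1-6, -6.97 in EHe and -7.47 in ES, and the last 2 values were background, so Alb was at least 1911-fold lower in EHe. Alpha-fetoprotein (Afp), its fetal counterpart, had a level of 6.77 in Hepa1-6 and was not well above background in EHe, where it was at least 3129.5-fold lower. Afp was at -4.02 and well above background in ES, so the hybrid was below both parents, at 0.565 of the ES signal or less. Not all carrier genes were shut off completely: transferrin (Trf), which carries iron, was at -1.86 in EHe against 4.67 in Hepa1-6, and retinol binding protein 4 (Rbp4) at -1.73 against 7.36. Both were well above background in EHe and in ES (Trf -1.44, Rbp4 -0.97). The fetuin gene Ahsg went the other way, at -0.28 in EHe, 1.43 in ES and not well above background in Hepa1-6, at least 32.7-fold higher in EHe.

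The promoters of the liver-secreted proteins furthest below Hepa1-6 are shown here for their base composition, since promoters poor in CG dinucleotides are common among tissue-specific genes. Sequences are from RefSeq (GRCm38.p6), from 250 bases before to 50 bases after the start of the gene, read along the gene. Capitals mark CG dinucleotides. On both strands, the TATA box was searched as TATAAA, the AP-1 site was TGANTCA, the E-box was CACGTG and the HNF4 site was CAAAGTCCA. Igfbp1, a liver-secreted binding protein of insulin-like growth factors, was furthest below Hepa1-6 of all named hepatoma genes.
Alb promoter, chr5:90460620-90460919, plus strand: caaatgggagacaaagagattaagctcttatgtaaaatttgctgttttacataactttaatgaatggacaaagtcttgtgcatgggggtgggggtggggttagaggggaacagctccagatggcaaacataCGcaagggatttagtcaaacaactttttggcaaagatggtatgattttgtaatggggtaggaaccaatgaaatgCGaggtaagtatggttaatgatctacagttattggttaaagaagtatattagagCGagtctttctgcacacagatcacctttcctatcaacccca
Afp promoter, chr5:90490464-90490763, plus strand: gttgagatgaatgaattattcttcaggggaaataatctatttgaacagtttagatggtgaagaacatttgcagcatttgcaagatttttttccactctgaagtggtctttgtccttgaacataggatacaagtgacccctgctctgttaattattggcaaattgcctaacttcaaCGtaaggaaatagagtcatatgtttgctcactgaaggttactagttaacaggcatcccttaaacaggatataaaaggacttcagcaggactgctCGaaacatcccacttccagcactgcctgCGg
Fgb promoter, chr3:83049814-83050113, minus strand: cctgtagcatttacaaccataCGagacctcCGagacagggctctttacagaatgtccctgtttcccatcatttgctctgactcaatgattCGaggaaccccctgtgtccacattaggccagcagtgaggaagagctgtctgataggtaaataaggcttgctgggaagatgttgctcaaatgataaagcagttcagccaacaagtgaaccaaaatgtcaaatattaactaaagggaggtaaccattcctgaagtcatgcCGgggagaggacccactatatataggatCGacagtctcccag
Igfbp1 promoter, chr11:7197537-7197836, plus strand: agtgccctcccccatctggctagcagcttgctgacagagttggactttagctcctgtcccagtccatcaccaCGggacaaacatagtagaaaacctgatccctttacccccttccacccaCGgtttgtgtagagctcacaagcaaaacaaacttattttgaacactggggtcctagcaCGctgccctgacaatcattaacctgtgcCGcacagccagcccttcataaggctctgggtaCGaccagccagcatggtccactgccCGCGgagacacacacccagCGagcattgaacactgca

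Alb and Afp held 3 CG dinucleotides each, Fgb 5 and Igfbp1 8. The lists of plasma carriers, apolipoproteins, coagulation and complement held 17 silenced genes, of which 13 had a promoter in the reference, with 14 promoters in all. The median of these 14 was 3.5 CG dinucleotides, against 6 over 486 promoters of all silenced genes, 19 over 14116 promoters of tested genes and 7 over all 32851 promoters. Afp had TATAAA 7 bases before the start and Fgb an AP-1 match 173 before. TATAAA was in 3 of the 14, the AP-1 site in 2, and neither the HNF4 site nor the E-box in any. A letter match is a description and not a bound site.

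Among coagulation genes, 7 of 15 tested were over 3-fold lower, 5 of them also at the detection limit, 3 were higher, 2 at the detection limit, and 5 were within 3-fold (median -0.60, or -0.20 with dim values set to the limit, -0.17 with the normexp background correction and -1.17 after quantile normalization). The fibrinogen beta chain gene Fgb had a level of 4.70 in Hepa1-6 and background values of -6.20 in EHe and -5.83 in ES, at least 744-fold lower in EHe. Protein C (Proc), an anticoagulant protease, was at 9.15% of the Hepa1-6 level, and its level of -1.405 in EHe was below that of -1.125 in ES. Prothrombin (F2) was 9.25-fold higher in EHe. Complement split more sharply, with 10 of 17 genes lower, 7 higher and none within 3-fold (median -4.15). At the detection limit the 10 lower genes stood, while 5 of the 7 higher ones did. Cfi, which cleaves C3b and C4b, was at least 262-fold lower. The central component C3 was at 0.438% of the Hepa1-6 level but well above background, at -3.18 in EHe against -2.41 in ES. Serping1, the C1 inhibitor, was at least 12.1-fold higher in EHe and also present in ES. Of 11 apolipoprotein and lipid export genes, 5 were lower (3 at the detection limit), 2 higher and 4 within 3-fold, with a median of -1.41, which became -0.70 with dim values set to the limit and -0.54 with normexp. Apob, the structural protein of very low density lipoprotein, was at least 19.2-fold lower and Apoc4 at least 230.1-fold lower. Apoe had a level of 6.83 in EHe, 8.23 in Hepa1-6 and 5.79 in ES, and so was within 3-fold. Pltp, a phospholipid transfer protein, was at least 34.2-fold higher in EHe.

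Liver transcription factors were more often lower than higher in EHe. Of 22 liver transcription factors tested, 14 were over 3-fold lower in EHe, 11 of them also at the detection limit, 2 were higher and 6 within 3-fold, with a median of -2.83. Foxa2, a pioneer factor of endoderm and liver, was at 3.38 in Hepa1-6, -2.85 in ES and background in EHe, at least 299-fold lower than in Hepa1-6 and below its level in ES. Foxa3 was at least 65.9-fold lower, the orphan receptor Nr2f2 at least 46.6-fold, the bile acid receptor Nr1h4 at least 40.4-fold and Onecut1 at least 13.5-fold. Cebpa was at least 18.0-fold lower, and another tested probe of it gave another call. Foxa1 was near the limit in Hepa1-6 itself, at -4.82, so its background value in EHe allows no statement beyond 1.02-fold.

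Hnf4a, the nuclear receptor at the centre of the hepatocyte network, was not silent in the hybrid. Its level was 0.94 in Hepa1-6 and -2.86 in EHe, both well above background, and -5.48 in ES, -7.77 in EHeD7 and -6.67 in EHeD14, none of them well above background. EHe thus held 7.20% of the hepatoma level, and the differentiated hybrid held no measurable signal. Of 2 other tested probes of Hnf4a, 1 gave another call. Cebpb was at 10.9% and Onecut2 at 1.51% of Hepa1-6, both well above background. Cebpd, an acute-phase member of the C/EBP family, had a level of 1.28 in EHe, 1.01 in Hepa1-6 and -0.51 in ES, so that the hybrid was at the hepatoma level, although the 2.88-fold gap between the parents kept it from being a hepatoma probe. The 2 factors higher in EHe, Nr5a2 and Gata6, were bright in ES, at 3.13 and 1.59.

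**Figure D3:**
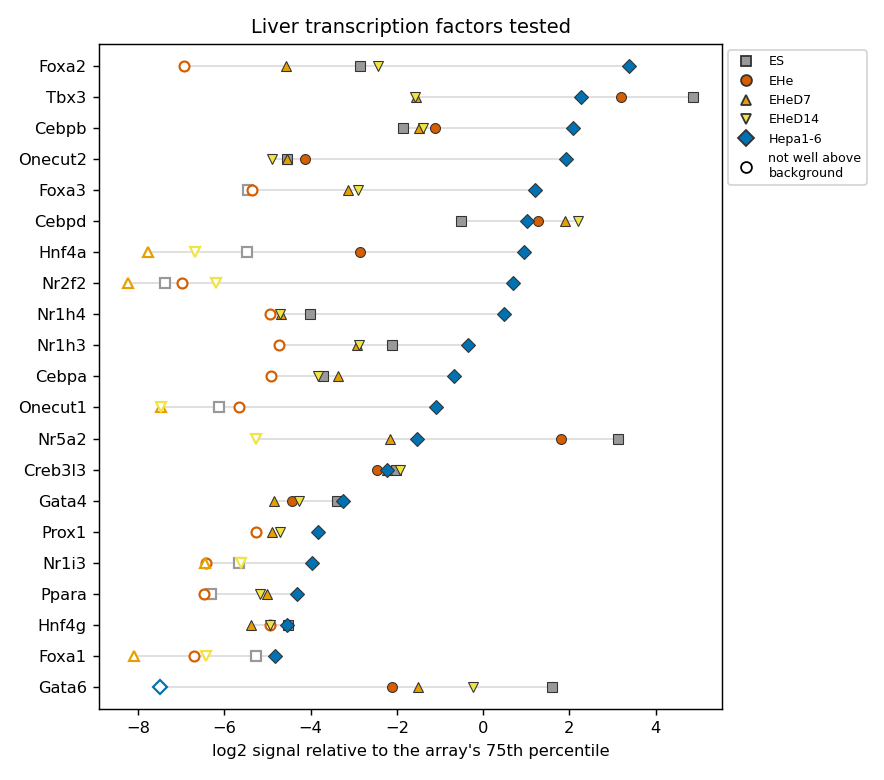
Log2 signal relative to the array's 75th percentile (x axis) of 21 of the 22 liver transcription factors tested (1 line each, ordered by the Hepa1-6 level) on the 5 arrays. Open symbols were not well above background. For 13 of the 21 genes the EHe circle is over 3-fold left of the Hepa1-6 diamond, and Hnf4a is filled in EHe and Hepa1-6 alone.

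Detoxification followed the same direction, with 13 of 23 tested cytochrome P450 and phase II genes lower (12 at the detection limit), 2 higher and 8 within 3-fold (median -1.86). Cyp1a1 and its regulator Ahr were both low: Cyp1a1 was at least 53.1-fold lower and Ahr was at 8.21% of Hepa1-6. Cyp3a13 was at least 201-fold lower, Nnmt, which methylates nicotinamide, at least 328-fold lower, and the retinaldehyde dehydrogenase Aldh1a1, at 5.98 in Hepa1-6 and -2.88 in EHe, was 467-fold lower. The glutathione transferase Gsta4 and the quinone reductase Nqo1 were 46.4-fold and 43.3-fold higher in EHe. Amino acid, urea and gluconeogenic genes did not share this direction, with 2 of 18 tested lower, 7 higher (6 at the detection limit) and 9 within 3-fold (median 1.16). Of the 2 lower genes, the alcohol dehydrogenase Adh1 was at least 12.4-fold lower. Ass1, which makes argininosuccinate, was 9.10-fold higher in EHe, and Fbp1, a gluconeogenic enzyme, at least 24.1-fold. Among transporters and surface receptors, 8 of 19 were lower, 3 higher and 8 within 3-fold (median -0.41). The canalicular exporter Abcc2 was at 0.732% of Hepa1-6, and the epithelial cadherin Cdh1, background in Hepa1-6, was at least 241-fold higher in EHe.

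The 15 named hepatoma genes furthest below Hepa1-6 were only partly liver genes. Igfbp1 was at 7.61 in Hepa1-6 and at background on the 4 other arrays, at least 5615-fold lower in EHe. Decorin (Dcn), a matrix proteoglycan, was at 7.46 and likewise at background elsewhere, at least 5036-fold lower. After Igfbp1, Dcn and Afp came Sprr1a, a cornified envelope protein, which was measured in EHe at -3.50 against 7.59 and so was 2187-fold lower. Ankrd1, a stretch-responsive nuclear protein, was at least 1691-fold lower. The collagenase Mmp13, the hyaluronan receptor Cd44, the tetraspanin Tspan8, keratin 20 (Krt20) and the caveola protein Cavin2 were all background in EHe, with bounds from 707-fold lower for Krt20 to 902-fold for Tspan8. Anxa3, an annexin, was measured at 0.134% of Hepa1-6. In all, 78 silenced and 49 lowered probes of the 1489 hepatoma probes were over 100-fold lower. Over all 25931 probes tested it was 128 (0.494%), a count that includes these and so is no separate background.

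**Figure D4:**
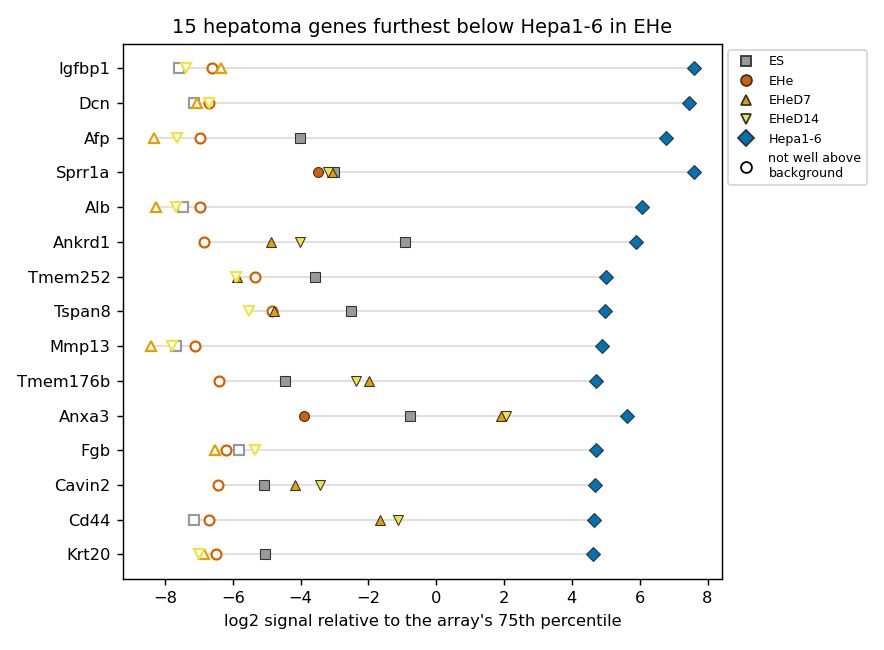
Log2 signal relative to the array's 75th percentile (x axis) of the 15 named hepatoma genes furthest below Hepa1-6 (1 line each, largest bound first) on the 5 arrays. Open symbols were not well above background. EHe is open for 13 of the 15 genes, and Cd44, Tmem176b and Anxa3 lie further right in EHeD7 and EHeD14.

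Growth factor genes differed in both directions, more of them lower in the hybrid. Of 22 growth factor ligands and receptors tested, 12 were lower, all 12 also at the detection limit, 5 were higher, 3 at the detection limit, and 5 were within 3-fold, with a median of -2.11. The ligand amphiregulin (Areg) was at 4.01 in Hepa1-6 and background in EHe, at least 461-fold lower, while its receptor Egfr was at 3.82 and -1.89, or 1.91% of Hepa1-6. Met, the hepatocyte growth factor receptor, was at 0.891% and Fgfr4, a hepatocyte receptor, at 11.7%. The receptor kinase Axl was at least 65.7-fold lower. In the opposite direction, Igf1r was background in Hepa1-6 and at least 15.0-fold higher in EHe.

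In the TGF beta and BMP pathway, 12 of 27 genes were lower, 4 higher and 11 within 3-fold (median -1.24). The ligand Tgfb1 was at 4.26% of Hepa1-6, its receptor Tgfbr2 at 5.24%, and Thbs1, which activates the latent ligand, was at least 64.3-fold lower. Of the signal carriers and inhibitors, Smad1, Smad2, Smad4, Smad5, Smad6 and Smad7 were within 3-fold, and Smad3 was at 19.1%. The 3 inhibitors of differentiation tested differed from each other: Id1 was at 10.2% of Hepa1-6 and Id2 at 1.49%, but Id3, at 2.48 in EHe, 3.73 in Hepa1-6 and 0.09 in ES, was within 3-fold at 41.9%.

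Cytoskeletal and adhesion genes were largely low as well, with 21 of 34 lower (all 21 also at the detection limit), 5 higher and 8 within 3-fold, and a median of -3.11. Keratin 8 (Krt8) was at 7.49 in Hepa1-6 and -0.65 in EHe, and its partner Krt18 at 7.67 and -0.96. Both were lower in EHe than in ES, where they were at 1.65 and 1.37. The annexin Anxa1 was at 0.161%, the calcium-binding protein S100a6 at 1.23% and the caveolin Cav2 at least 167-fold lower. Vimentin (Vim), an intermediate filament of mesenchymal and ES cells, was 5.83-fold higher in EHe. Extracellular matrix genes were divided, with 11 of 27 lower, 8 higher (6 at the detection limit) and 8 within 3-fold (median -0.95). The laminin chain Lamb3 was at least 114-fold lower, while Lama1 was at least 40.1-fold higher.

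Immune recognition genes were also low. Of 19 antigen presentation genes, 12 were lower, 1 was higher and 6 within 3-fold (median -3.03). B2m, the invariant chain of class I molecules, was at 5.46 in Hepa1-6, 0.16 in EHe and 0.23 in ES, or 2.53% of the hepatoma level, and the immunoproteasome subunit Psmb8 was at least 139.6-fold lower. Class I heavy chains are near-identical copies whose probes may cross-hybridise, so their values are uncertain, among them H2-K1, the single higher gene, for which another probe gave another call. Of 24 interferon and innate sensing genes, 15 were lower (13 at the detection limit), 2 higher and 7 within 3-fold (median -2.08). The RNA sensor Ifih1 was at least 28.0-fold lower and the exonuclease Isg20 at least 102-fold. Of 21 lysosome and metallothionein genes, 9 were lower, 1 higher and 11 within 3-fold (median -1.42). Cathepsin H (Ctsh) was at 4.33% and the melanosomal and lysosomal glycoprotein Gpnmb was at least 455-fold lower.

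Among AP-1, MYC and cell cycle regulators, 13 of 28 were lower, 5 higher and 10 within 3-fold (median -1.32). Fosl1, an AP-1 subunit, was at least 155-fold lower, Atf3 was at 2.71% and Egr1 at 2.73%. Myc had a level of 4.26 in Hepa1-6, -2.09 in EHe and 0.33 in ES, whereas Mycn, the ES-cell paralog, was at 4.32 in EHe, 4.26 in ES and -3.94 in Hepa1-6. The 2 inhibitors of the INK4 locus were both reduced, Cdkn2a to 4.09% and Cdkn2b to 2.43%. For Cdkn2a the paper's RT-PCR went the other way. There its products p16INK4a and p19ARF were undetectable in Hepa1-6 and brought to normal levels by fusion. Matches to the AP-1 site TGANTCA were in 16.3% of the 486 promoters of silenced genes and 10.9% of the 470 of lowered genes. They were in 3 of 31 promoters (9.68%) of the genes within 3-fold, 5.59% of promoters of tested genes and 7.81% of all promoters. A link to the lower AP-1 genes was not tested.

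A small set of hepatoma probes was lower in EHe than in either parent. With EHe at its detection limit where dim, 37 of 1489 hepatoma probes (2.48%, 30 named genes) were over 3-fold below both ES and Hepa1-6, against 183 (0.706%) of all probes tested, and 27 of the 37 were measured in EHe. Since a hepatoma probe is over 10-fold above ES by choice, any such probe below ES is below both parents, and the matching share of all probes, those over 3-fold lower in EHe than in ES, was 2.43%, close to that of the hepatoma probes. The largest gaps to ES were of Ly6a and Ly6c2, a pair of surface antigens, with levels of 4.26 and 6.06 in Hepa1-6, 0.90 and 2.48 in ES, and -5.13 and -3.21 in EHe, where Ly6a was not well above background. The matrix-cell signalling protein Ccn2, which the array lists by its older name Ctgf, was at 6.49, 1.22 and -1.52 in the same order. Ddr2, Ankrd1, Rnd1, Anxa3, Krt7, Itga3, Myc and Psmb8 were among the others. ES and EHe arrays shared a slide and a medium in this comparison.

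Of the 38 probes within 3-fold of Hepa1-6, 27 carried a gene name, for 25 genes, and 36 were somewhat lower in EHe than in Hepa1-6. Their levels ran from 33.5% to 141% of Hepa1-6 with a median of 52.2%, and 20 were at 50% or more. In ES, 21 of the 38 were not well above background, so that for these the brightness over ES is itself a bound. With ES at its detection limit, 26 of the 38 were over 10-fold brighter in Hepa1-6 than in ES. The scale mattered here too: 33 of the 38 stayed within 3-fold after quantile normalization and 18 after centring on the median. With the normexp background correction all 38 stayed within 3-fold, but only 6 were still over 10-fold brighter than in ES.

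**Figure D5:**
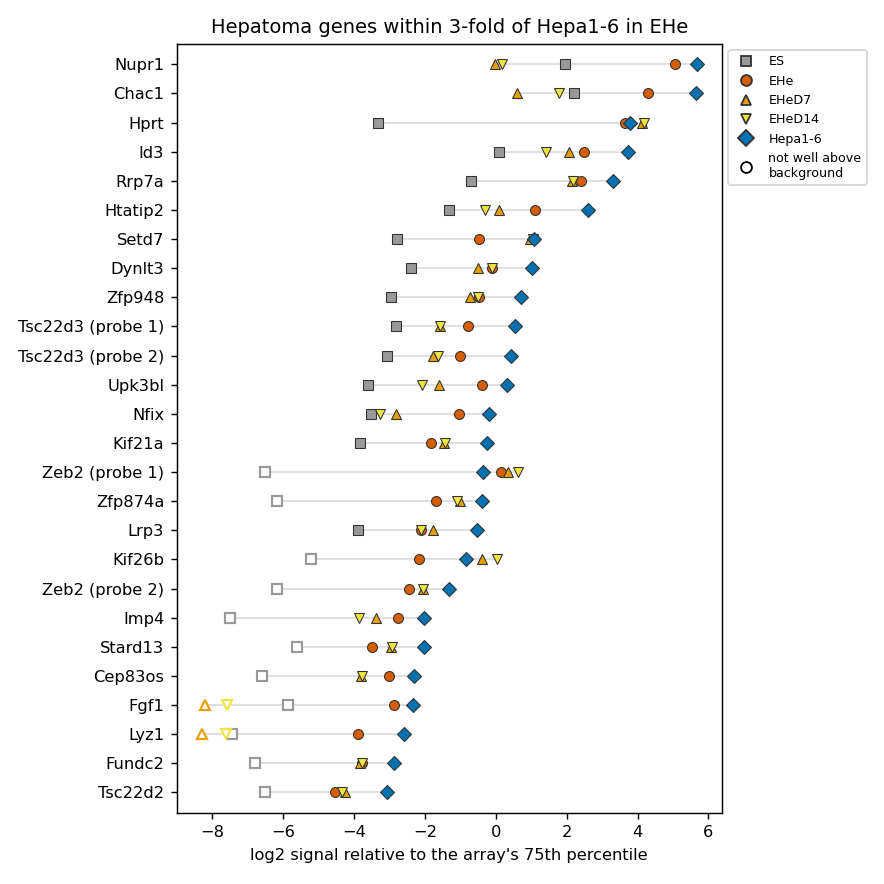
Log2 signal relative to the array's 75th percentile (x axis) of 26 of the 27 named probes (24 of 25 genes) within 3-fold of Hepa1-6 in EHe (1 line each, ordered by the Hepa1-6 level) on the 5 arrays. Open symbols were not well above background. EHe circles lie next to the Hepa1-6 diamonds, with ES squares to the left. Nupr1 and Chac1 lie far lower in EHeD7 and EHeD14, and Hprt does not.

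On the scale used here, Hprt stood near the hepatoma level on all 3 hybrid arrays. This purine salvage enzyme, encoded on the X chromosome, had a level of 3.78 in Hepa1-6, 3.64 in EHe, 4.12 in EHeD7 and 4.17 in EHeD14, but -3.31 in ES. EHe was at 90.7% of Hepa1-6 and 124-fold above ES. The difference of -0.14 to Hepa1-6 is within the error of 0.20, which covers the reading of the spot only. It was -0.16 after quantile normalization and -0.81 after centring on the median. Hprt is otherwise a housekeeping gene, and the widely used ES line E14TG2a, a derivative of E14, is known to lack it. The labels name E14 alone, and the Hprt genotype of the ES parent was not tested. Of the 15 housekeeping genes tested, 14 including Hprt were within 3-fold of Hepa1-6, and 1 was over 3-fold higher. Their median difference was 0.04, or -0.63 after centring on the median.

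Nupr1, a stress-induced nuclear protein, and Chac1, a glutathione-degrading enzyme of the integrated stress response, were the brightest of the 25. Nupr1 had a level of 5.67 in Hepa1-6, 5.07 in EHe and 1.95 in ES, and then -0.01 in EHeD7 and 0.16 in EHeD14. Chac1 was at 5.66, 4.30 and 2.21, and at 0.59 and 1.79 in the differentiated hybrid. Both were thus near the hepatoma level only in the undifferentiated hybrid, and the differentiated hybrid was below ES. The promoter of Hprt held 22 CG dinucleotides and that of Nupr1 held 6. These 2 promoters are shown because only these 2 probes met every criterion under all 4 alternatives of scale and correction.
Hprt promoter, chrX:52987828-52988127, plus strand: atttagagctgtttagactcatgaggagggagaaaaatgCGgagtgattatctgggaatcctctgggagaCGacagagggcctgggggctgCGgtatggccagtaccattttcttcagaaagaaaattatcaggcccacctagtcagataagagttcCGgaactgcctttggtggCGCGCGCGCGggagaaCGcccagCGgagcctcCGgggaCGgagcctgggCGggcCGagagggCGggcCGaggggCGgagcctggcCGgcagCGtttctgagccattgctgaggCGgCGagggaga
Nupr1 promoter, chr7:126625421-126625720, minus strand: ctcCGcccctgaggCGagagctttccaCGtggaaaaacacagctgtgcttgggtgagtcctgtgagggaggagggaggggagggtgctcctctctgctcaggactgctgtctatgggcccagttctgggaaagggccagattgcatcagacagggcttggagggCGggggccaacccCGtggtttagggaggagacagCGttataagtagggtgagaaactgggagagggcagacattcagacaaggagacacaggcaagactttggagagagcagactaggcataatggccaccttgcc

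Hprt held none of the searched motifs in this window and Nupr1 an E-box 225 bases before the start. Of the 25 genes, 22 had a promoter in the reference, with 31 promoters in all. Their median of 13 CG dinucleotides lay between that of silenced genes (6 over 486 promoters) and that of tested genes (19), and lowered genes had 14. TATAAA was in none of the 31 promoters, against 16.9% for silenced genes and 8.45% for tested genes.

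Several of the others encode transcription regulators. Zeb2, a zinc finger repressor of epithelial genes, had a level of 0.13 in EHe, -0.36 in Hepa1-6, 0.34 in EHeD7 and 0.62 in EHeD14 on its brighter probe, with ES at background. It was at 141% of Hepa1-6 on that probe and at 45.5% on a second, and at least 47.0-fold above ES on the first. Nfix, a nuclear factor I protein, was at 54.9% of Hepa1-6, and Tsc22d3, a glucocorticoid-induced leucine zipper protein, at 39.4% and 36.7% on 2 probes. Id3, Zfp948 and Zfp874a were at 41.9%, 43.7% and 40.8%. The lysine methyltransferase Setd7 was at 34.2%.

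Other members were the ribosome assembly factors Rrp7a at 52.9% of Hepa1-6 and Imp4 at 59.6%, the growth factor Fgf1 at 67.9%, the dynein light chain Dynlt3 at 45.5%, the kinesins Kif21a at 33.7% and Kif26b at 40.0%, and Lyz1, a lysozyme, at 40.7%. Htatip2, Upk3bl, Lrp3, Stard13, Cep83os, Fundc2 and Tsc22d2 were also among them, at between 33.5% for Lrp3 and 62.2% for Cep83os. On the X chromosome lay 4 genes, Hprt, Dynlt3, Tsc22d3 and Fundc2, of 26 hepatoma genes named there, while chromosome 7 held 3 of 62 and chromosomes 6, 9, 11, 12, 14, 16 and 19 none. Over all chromosomes it was 25 of 988 genes. These counts are small and are given as a description.

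Several of these genes rest on a single probe or on a value near the threshold. Lrp3, Kif21a, Setd7, Htatip2 and Tsc22d2 were just inside 3-fold, at 33.5% to 36.3%. Just outside were Hspb8 at 33.2%, an unnamed transcript at 32.0%, and second probes of Htatip2 at 31.7% and of Setd7 at 30.4%. A further probe of Kif21a, which was no hepatoma probe, was at 22.5%, and one of Tsc22d2 at 28.2%. A second probe of Stard13 was background in EHe.

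The differentiated hybrid gave readings of the same probes that had no part in the choice. Of the 38 probes, 35 were well above background in EHeD7 and 34 in EHeD14, as were 94.8% and 92.6% of all probes tested, and 24 and 23 were within 3-fold of Hepa1-6, against 63.5% and 63.0% of all probes tested on the same arrays. Their median levels were 42.8% and 43.8% of Hepa1-6. In EHeD14, Setd7 was at 98.6% of Hepa1-6 and Kif26b at 183%. Fgf1 and Lyz1 were background on both days, at 67.9% and 40.7% of Hepa1-6 before differentiation, and Nfix was at 16.2% and 11.8%.

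Most silenced probes stayed far below the hepatoma level. Of 715 silenced probes, 358 (50.1%) were well above background in EHeD7 and 297 (41.5%) in EHeD14, and 349 were background on both days, although the detection limits on those arrays, signals of 18.3 and 28.4, were below that of EHe. Only 46 (6.43%) and 47 (6.57%) were within 3-fold of Hepa1-6. Alb, Afp, Fgb, Igfbp1, Dcn and C4bp stayed at background on both days. The paper's RT-PCR, in contrast, reported that tissue-specific expression, with Alb as the hepatic marker, came back in differentiating ES-Hepa hybrids. Those were embryoid bodies grown with serum replacement, on days that only partly match these arrays. Over silenced and lowered probes together, 101 of 1309 (7.72%, 73 named genes) were within 3-fold of Hepa1-6 on both days, against 60.8% of all probes tested. The 1309 were chosen as over 3-fold below Hepa1-6 in EHe, where 58.4% of all probes tested were within 3-fold. Part of the gap therefore lies in the choice, and how much was not tested.

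The brightest of these 101 in the hepatoma were Tpm1, a tropomyosin, and Arl4c, a small GTPase of the ARF family. Tpm1 was at 5.13 in Hepa1-6, 1.53 in EHe, 4.28 in EHeD7 and 4.08 in EHeD14, and Arl4c at 5.02, -1.35, 4.60 and 4.63. The adhesion protein Nrcam went from -3.26 in EHe to 2.44 and 2.54, against 2.90 in Hepa1-6. Psmb8, background in EHe, was at 1.86 and 3.55, against 2.28. Iron exporter Slc40a1, phosphatase Dusp4, bundling protein Pls3 and surface antigen Cd24a were in the same group. These genes were named after their values were seen.

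Some hepatoma probes were measured in EHe although the ES parent gave background. Of 1489 hepatoma probes, 798 were not well above background in ES, and 68 of these (8.52%) were well above background in EHe. These 68 had a median of 20.1% of Hepa1-6, and 21 of them were within 3-fold. The matching share over all probes tested was not computed, so 8.52% cannot be read as an excess. After Zeb2, the largest gaps to ES among named genes were of Crisp1, a secretory protein of the male reproductive tract, at -0.61 in EHe, 3.66 in Hepa1-6 and background on the other 3 arrays, and the zinc finger gene Zfp945, at 0.74 in Hepa1-6 and -1.41 in EHe, then -0.19 and 0.61 after differentiation. Crisp1, like Hnf4a, Fgf1 and Lyz1, was measured in EHe and Hepa1-6 alone. The lipoprotein receptor Vldlr was at 30.1% and the adhesion receptor Adgrg1 at 11.8% of Hepa1-6.

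In the other direction, 241 probes (0.929%) were over 100-fold higher in EHe at the detection limit. The 10 named genes with the largest excess in EHe were all background in Hepa1-6 and bright in ES. They were the small heat shock protein Hspb1 (at least 5223-fold), Bex4, Rps4l, Zfp42, Dppa5a, the nucleotide carrier Slc25a4, the glucose transporter Slc2a3, Meg3, Tcf15 and Ckb (at least 1561-fold). A second probe of Slc25a4 was well above background in Hepa1-6. Of the pluripotency genes, the ES factor Pou5f1 was at 4.04 in EHe, 3.75 in ES and background in Hepa1-6, and the list median was 8.18. Imprinted and oncofetal genes were higher in EHe in 17 of 21 tested, lower in 1, Igf2, at 24.6%, and within 3-fold in 3 (median 4.51). The imprinted non-coding RNA Meg3 was at 5.46 in EHe and the imprinted Mest at 4.23, both background in Hepa1-6.

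Markers of other cell types gave no common direction. Of 14 fibroblast and feeder markers, 8 were tested, with 3 lower in EHe, among them Dcn and S100a4, 4 higher (2 at the detection limit) and 1 within 3-fold, while Col3a1, Lum, Postn, Prrx1, Fap and Meox2 were not well above background on either array. Of the haematopoietic markers, 6 were tested, with 2 lower, 1 higher (0 at the detection limit) and 3 within 3-fold, and Ptprc, Lyz2 and Tyrobp were not well above background on either array. All 4 endothelial markers tested, of which Pecam1 is also expressed by ES cells, were higher in EHe, and Cdh5, Tek and Tie1 were background on both arrays. Of 14 primitive and visceral endoderm genes, 6 were lower, Afp and Foxa2 among them, 6 higher and 2 within 3-fold, with 5 lower and 5 higher at the detection limit, and their median of -0.38 became 0.25 with dim values raised to the detection limit. The haematopoietic median of 0.43 became -0.02 after quantile normalization and -0.25 after centring on the median. Of 19 genes that the study had itself tested in these cells, 15 were lower (14 at the detection limit), 3 higher and 1 within 3-fold, and since the study chose them on these lines they are no independent evidence.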

How the data were processed

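Total RNA was labelled and hybridised to 1 Agilent mouse array per condition (5 arrays). The labels give the dye as Cy3, the paper as Cy5. The authors deposited the tables of Feature Extraction 10.7.3.1, in which each processed signal is an intensity corrected for background by the software and not normalized between arrays. The deposited series table held the same intensity values. Control spots and outlier spots (73 in EHe, 174 in Hepa1-6, of 45018) were left out, and no spot was saturated. The 75th percentile of each array was subtracted from its log2 signals, and spots of one probe were averaged. Of 41174 probes, 26888 were named through RefSeq accessions and 141 through the study's probe list, and 14145 have no name here.

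With 1 array per condition no test was possible, and the number of arrays limits the precision. Folds against a dim value are approximate bounds, taken at the lowest well-above-background signal on that array or at the measured signal where that was higher. Genes named were the 15 furthest below Hepa1-6, the named exceptions, the 5 on each side of 3-fold, the 10 furthest above and members of 24 gene lists, 1 probe per gene, the one with the highest mean level, with a few named after their values were seen. Some genes under this rule are not reported here. The members and lists were chosen with earlier results of these data known. The classification was tested on simulated data in which each class lay clear of 3-fold. That run does not cover probes near 3-fold or a shift of scale between arrays. Alternatives were normexp correction (offset 50), quantile normalization, median centring, detection-limit flooring, other filters, gene means and other thresholds. Software was limma 3.58.1 in R 4.3.3, and Python 3.11.15 with numpy 2.4.6, pandas 2.3.3, matplotlib 3.10.9 and scipy 1.17.1.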

Additional observations from a re-analysis of the deposited data

How the results depend on the processing

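Of 64 values recomputed over 6 results and 12 other settings, 30 kept within the limits set, 34 moved and none reversed. The limits were a ratio of 1.5 for counts and the spot noise of 0.17 for the median. For shares they were the 95% Wilson interval, which takes probes as independent. Only the median difference could be scored as reversed, since counts and shares have no sign. The balance of higher and lower calls was not scored. The share higher in EHe was 57.2%, and 48.7% with quantile normalization and 38.2% with median centring. The deposited series table held the same values, so it could not move. Without the filter on dim probes, the results on hepatoma probes also kept identical values. No paired analysis was possible because there was only 1 array per condition. Probes over 3-fold lower in EHe numbered 4190, and 2661 with normexp, 6304 with median centring, 2319 among probes well above background on both arrays, 2183 as gene means and 2671 at 5-fold. Probes over 3-fold higher numbered 5606, and 3064 with normexp, 2502 among probes bright on both arrays and 3139 as gene means.

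Hepatoma probes numbered 1489, and 633 with normexp, 2375 with median centring, 632 among probes bright on both arrays, 824 as gene means, 4230 at 3-fold above ES and 634 at 30-fold. The silenced share was 48.0%, and 35.7% with normexp, 41.0% with median centring, 43.9% as gene means, 54.3% at 2-fold, 40.5% at 5-fold, 23.1% at 3-fold above ES and 67.2% at 30-fold. It was 0 by construction among probes bright on both arrays. The share within 3-fold of Hepa1-6 was 2.55%, and 1.11% with normexp, 6.01% among probes bright on both arrays, 1.34% at a 2-fold limit, 5.17% at a 5-fold limit, 16.1% at 3-fold above ES and 1.42% at 30-fold. The median difference of -4.52 became -4.30 with median centring, -4.22 with all dim values at the detection limit, -4.00 among probes bright on both arrays, -4.74 as gene means, -2.59 at 3-fold above ES and -6.03 at 30-fold. Part of these moves lies in the construction, since fewer or dimmer probes enter. The rest of the cause was not tested. Normexp brought most list medians nearer 0, that of cytochrome P450 and phase II enzymes from -1.86 to -0.90 and that of growth factor ligands and receptors from -2.11 to -1.27.

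The number of arrays limits the precision, and signal over background limits the silenced class: 142 hepatoma probes were too dim in Hepa1-6 for a bound past 3-fold.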
